A study of Oryza sativa with 11 samples.

Results

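The 98 genes described here had lower transcript levels in anthers of the rice mutant ostie1-1 than in the wild type (WT) at both anther stages that were sequenced. They were chosen on these same values. A locus entered when the lowest WT library was at least 1.5 times the highest ostie1-1 library at stage 10 and again at stage 12, with at least 2 FPKM in all 6 WT libraries. FPKM is a length-corrected level, the fragments assigned to a transcript scaled by its length and by library size. Of the 55986 loci in the table, 11812 reached 2 FPKM in all WT libraries, and the 98 loci are 0.83% of these and 0.175% of all loci. The mirror rule, with ostie1-1 at least 1.5 times above WT at both stages, found 252 of the 12284 loci that reached 2 FPKM in all ostie1-1 libraries.

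Anthers of field-grown, untreated Oryza sativa were sampled in 4 groups: WT at stage 10 (3 libraries), ostie1-1 at stage 10 (3), WT at stage 12 (3) and ostie1-1 at stage 12 (2). The labels give the genotype as WT or ostie1-1 and say neither what the lesion is nor how many plants or anthers went into a library. They number biological replicates without saying whether these came from separate plants, so a p-value here reflects only how far these libraries spread, which may be technical. In bulk anther RNA, fewer cells of a type and less RNA per cell cannot be told apart.

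OsTIE1 belongs to the TIE family of transcriptional repressors. In Arabidopsis, TIE proteins carry an EAR motif, recruit TOPLESS-type co-repressors and bind TCP transcription factors, whose targets they hold down. The series links OsTIE1 to jasmonate (JA) synthesis, anther opening and male fertility. JA is the hormone that drives stamen ripening, and anthers of plants that lack it typically fail to open or to shed viable pollen. In rice anther staging, microspores are vacuolated around stage 10, when the tapetum that feeds them is breaking down, and pollen nears maturity at stage 12.

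The table names loci by their MSU identifiers and pairs none of them with a gene name. None of the 39387 genes of the RefSeq table at hand (assembly ASM3414082v1) carries such an identifier. The loci are therefore given by identifier, with the chromosome that the identifier holds and without name or function. The level of OsTIE1 itself was not analysed here for the same reason. As the lesion is not given, it is not known whether that level would check the genotype labels. Of the 98, 94 had 1 transcript model, or 95.9%, and so did 95.9% of the 11812 loci at the same WT floor.

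One WT library stood apart. Over 21279 loci, the Pearson r of log2 levels between WT stage 10 replicate 3 and its group mates was 0.79 (replicate 1) and 0.80 (replicate 2), whereas the group mates had an r of 0.98. With the 3 ostie1-1 stage 10 libraries its r was 0.88 to 0.90. Whether this library is mislabelled or was taken at another stage cannot be told from the labels, and it enters every WT stage 10 value and the WT stage comparison unless left out by name. The rule required this library, too, to exceed every ostie1-1 stage 10 library. Without it the rule found 1708 loci, among them all 98, and without ostie1-1 stage 12 replicate 1 it found 158. The 98 are thus the loci at which even the WT library most like the mutant stood on the WT side.

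Taken as a group, the 98 loci fell into WT and ostie1-1 levels with no intermediate library. Their median was 21.7, 18.7 and 23.3 FPKM in WT stage 10 replicates 1 to 3 and 2.98, 3.71 and 3.72 FPKM in ostie1-1 at stage 10. At stage 12 the median was 21.7, 22.2 and 20.4 FPKM in WT and 4.34 and 3.48 FPKM in ostie1-1. By construction every locus was lower in every mutant library of its stage, so these medians describe the size of the difference and do not test it. Together the loci made up 0.449% to 0.544% of the summed FPKM in 5 WT libraries and 1.42% in WT stage 10 replicate 3, against 0.105% to 0.132% in the 5 ostie1-1 libraries.

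**Figure D1:**
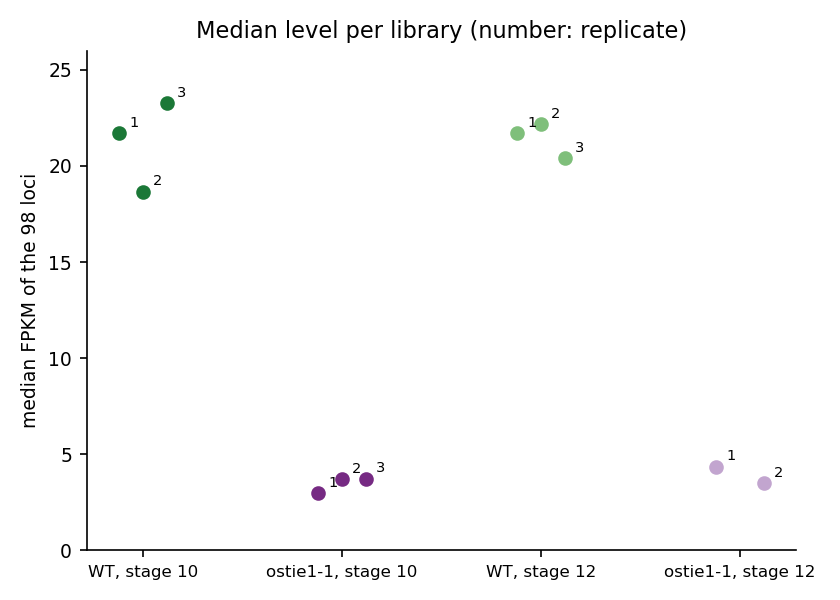
Median FPKM of the 98 loci in each library (y axis, linear from 0), by group on the x axis, with the replicate number beside each point. The 6 WT libraries lie between 18.7 and 23.3 FPKM and the 5 ostie1-1 libraries between 2.98 and 4.34 FPKM.

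The ostie1-1 mean was at a median of 21.6% of the WT mean at stage 10 and 24.8% at stage 12. At stage 10 it was below 5% of WT at 20 loci, from 5% to 20% at 25, from 20% to 50% at 51 and above that at 2. The same classes held 11, 28, 55 and 4 loci at stage 12. Without WT stage 10 replicate 3 the stage 10 classes held 10, 31, 55 and 2 loci, so that 10 fewer loci were below 5%. Less than 20% was left at both stages at 33 loci and 20% or more at both stages at 47. These percents, like the rule and the gaps, used FPKM without the median-of-ratios size factors of the tests. At stage 12 these factors were 1.07 to 1.33 in WT and 0.980 and 0.879 in ostie1-1. Dividing by them would raise the median stage 12 percent. At stage 10 they were 1.21, 1.18 and 0.734 in WT and 0.789, 0.936 and 1.02 in ostie1-1. With this scaling 81 loci met the rule, 59 of them in the set.

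**Figure D2:**
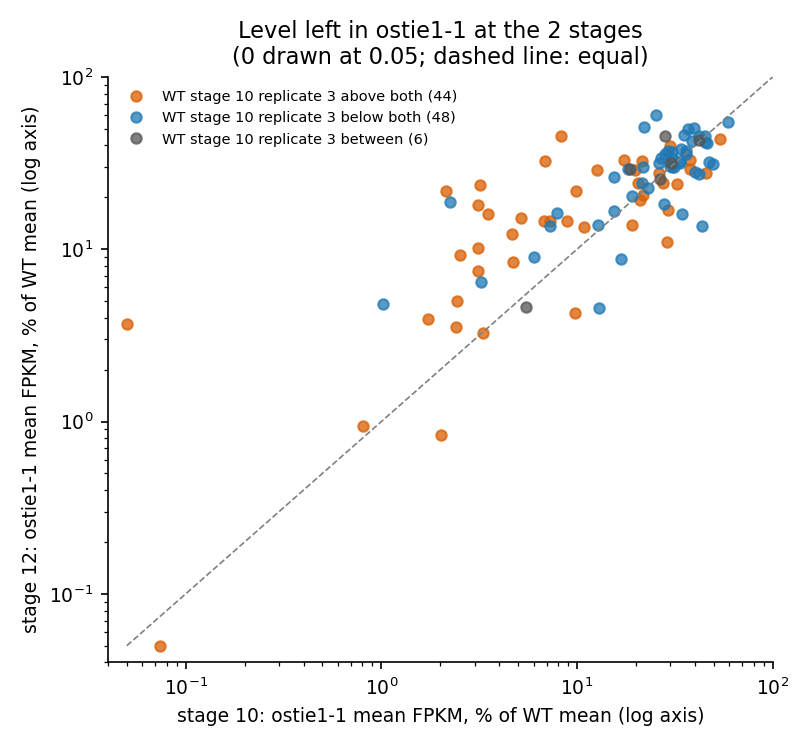
Mean FPKM in ostie1-1 as a percent of the WT mean at stage 10 (x axis) and stage 12 (y axis), both on log axes, with 1 point for each of the 98 loci and loci at 0 drawn at 0.05. Colours give the place of WT stage 10 replicate 3 relative to the other 2 WT stage 10 libraries: most points with a low stage 10 percent are loci where it was above both.

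In a linear model over all 21279 loci tested (limma, Benjamini-Hochberg adjusted p below 0.05), 47 of the 98 were lower in ostie1-1 at stage 10, where 0.555% of all loci were. At stage 12 the count was 19 of 98, where 0.301% of all loci were, and 17 were lower at both stages (0.108% of all). Groups that do not overlap, with every mutant library lower, were found at 6.67% of all loci tested at stage 10 and 31.8% at stage 12, and at all 98 by construction. The rule used these contrasts, so nothing is read from these counts. Without WT stage 10 replicate 3 they were 82 and 75 of 98, with 14.9% and 5.62% of all loci called. That fit called 66 at both stages, for which the share of all loci was not counted. The median log2 fold change of the 98 on the log2(FPKM + 1) scale was -1.74 at stage 10 (-0.01 over all loci tested) and -1.44 at stage 12 (0.05 over all loci).

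The deepest reductions were near-losses of the transcript, and 8 loci kept less than 5% of the WT mean at both stages, or 5 loci without WT stage 10 replicate 3. The widest gap belonged to LOC_Os10g05750 on chromosome 10, which also had the highest mean over the 6 WT libraries (741 FPKM). Over the 5 WT libraries other than WT stage 10 replicate 3 its mean was 235 FPKM, below the 293 FPKM of LOC_Os05g45120. It measured 484, 577 and 3271 FPKM in WT stage 10 replicates 1 to 3 and 2.28, 0.596 and 0.336 FPKM in ostie1-1. It measured 71.7, 26.9 and 16.3 FPKM in WT at stage 12 and was listed at 0 in both ostie1-1 libraries of that stage. Its lowest WT value at stage 10 was 212 times its highest mutant value, although the WT libraries themselves spread widely at both stages.

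In 5 loci every ostie1-1 library was below 1 FPKM, and all 5 were of modest level in WT. LOC_Os10g11370, also on chromosome 10, measured 4.16, 4.01 and 19.6 FPKM in WT and 0.152, 0.0715 and 0 FPKM in ostie1-1 at stage 10. At stage 12 its values were 3.09, 3.64 and 3.55 FPKM in WT, against 0.0648 and 0 FPKM in ostie1-1. Apart from the high WT stage 10 replicate 3, its 5 other WT libraries lay close together. LOC_Os05g38690 on chromosome 5 was listed at 0 in all 3 ostie1-1 stage 10 libraries, with 3.04, 3.09 and 11.6 FPKM in WT. It reached 0.125 and 0.133 FPKM in ostie1-1 at stage 12, against 4.06, 3.72 and 2.81 FPKM in WT. With mutant values this near 0, the ratios of both loci are imprecise.

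At LOC_Os07g02460 on chromosome 7 all 6 WT libraries were alike, replicate 3 of stage 10 included. They held 7.64, 8.49 and 7.33 FPKM at stage 10 and 7.45, 10.4 and 11.2 FPKM at stage 12. The ostie1-1 libraries held 0, 0.113 and 0.127 FPKM at stage 10 and 0.716 and 0.217 FPKM at stage 12. The lowest WT library of either stage was 10.2 times the highest mutant library of either stage. LOC_Os05g18470 on chromosome 5 behaved similarly at stage 10, with 10.5, 12.7 and 11.2 FPKM in WT and 0.861, 0.249 and 0.772 FPKM in ostie1-1. Its WT stage 12 libraries were more scattered, at 5.84, 18.2 and 6.92 FPKM, against 0.620 and 0.330 FPKM in ostie1-1. LOC_Os01g62490 on chromosome 1 completed the 5, with 10.2, 10.7 and 24.8 FPKM in WT and 0.243 to 0.509 FPKM in ostie1-1 at stage 10. At stage 12 WT held 3.28, 5.18 and 3.08 FPKM and ostie1-1 0.346 and 0.368 FPKM, so the WT and mutant levels were nearer to each other there.

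Among loci of higher level, LOC_Os08g34984 on chromosome 8 measured 39.3, 38.3 and 170 FPKM in WT and 1.21, 1.99 and 1.77 FPKM in ostie1-1 at stage 10. At stage 12 it measured 36.5, 42.8 and 17.6 FPKM in WT and 0.194 and 0.343 FPKM in ostie1-1. Both its mutant values at stage 12 were below all its mutant values at stage 10. LOC_Os07g10840 on chromosome 7 measured 74.0, 57.5 and 895 FPKM in WT and 4.62, 7.68 and 5.47 FPKM in ostie1-1 at stage 10. The stage 12 values were 111, 85.9 and 80.7 FPKM in WT and 5.37 and 1.95 FPKM in ostie1-1. WT stage 10 replicate 3 was 13.6 times the mean of the other 2 WT libraries at this locus, but the gap of 7.48 times did not depend on it, since the lowest WT value lay in replicate 2. LOC_Os09g25810 on chromosome 9 measured 41.4, 22.5 and 143 FPKM in WT and 3.40, 2.35 and 1.06 FPKM in ostie1-1 at stage 10. At stage 12 its WT libraries held 66.4, 98.8 and 68.7 FPKM and its ostie1-1 libraries 2.13 and 2.93 FPKM.

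At LOC_Os02g42990 and LOC_Os03g12270 the WT libraries were close to each other, and at LOC_Os07g43925 WT stage 10 replicate 3 was well above the other 5. LOC_Os02g42990 on chromosome 2 had 23.2, 18.1 and 15.9 FPKM in WT and 0.417, 1.18 and 0.265 FPKM in ostie1-1 at stage 10. Its stage 12 values were 22.0, 16.5 and 24.8 FPKM in WT and 0.994 and 1.74 FPKM in ostie1-1. All 6 WT libraries of this locus lay between 15.9 and 24.8 FPKM, at least 9.16 times the highest mutant library. LOC_Os03g12270 on chromosome 3 had 9.42, 10.0 and 13.7 FPKM in WT and 0.599, 1.31 and 1.34 FPKM in ostie1-1 at stage 10. Its stage 12 values were 11.7, 11.2 and 9.86 FPKM in WT and 0.510 and 0.422 FPKM in ostie1-1. LOC_Os07g43925 on chromosome 7 had WT values of 6.64, 5.77 and 34.6 FPKM at stage 10 and 13.3, 8.64 and 13.2 FPKM at stage 12. The ostie1-1 libraries of that locus held 0.605 to 1.36 FPKM over both stages.

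**Figure D3:**
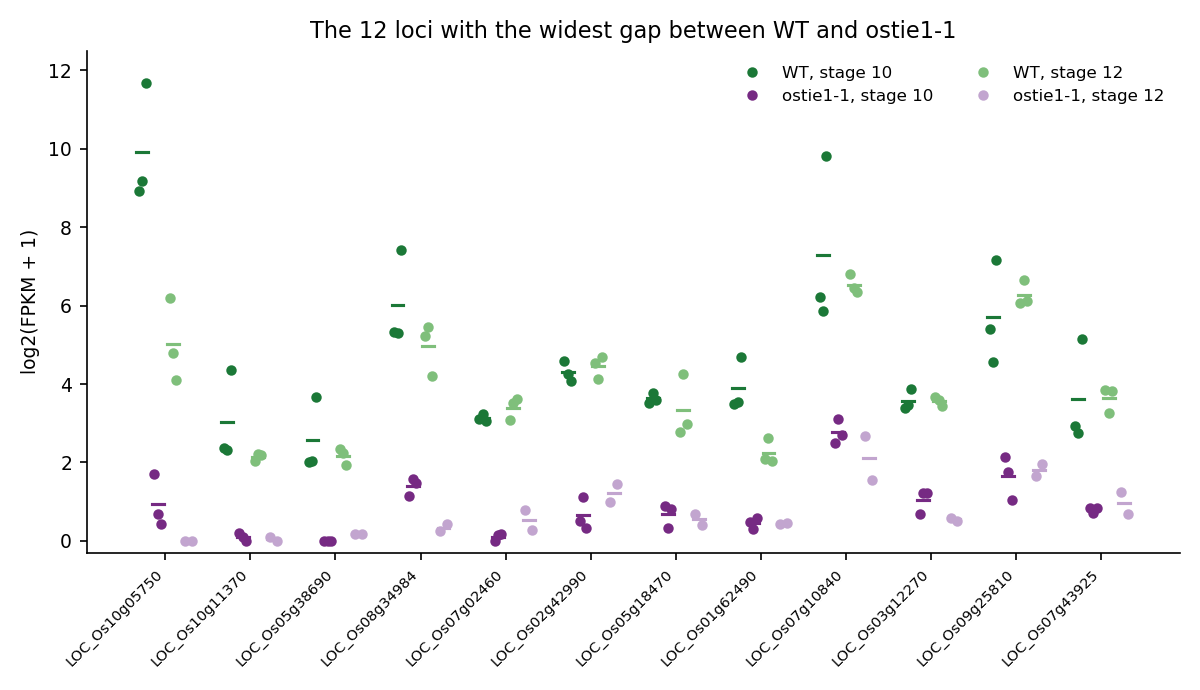
Level of the 12 loci with the widest gap between the lowest WT and the highest ostie1-1 library, as log2(FPKM + 1) on the y axis, with 1 point per library and a bar at the mean of each group. In each locus the 6 green WT points lie above the 5 purple ostie1-1 points. At several loci 1 WT stage 10 point lies well above the other 2, most widely at LOC_Os10g05750 and LOC_Os07g10840.

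Other loci of high WT level kept more of their transcript in the mutant. LOC_Os05g45120 on chromosome 5 had 193, 191 and 772 FPKM in WT and 101, 84.0 and 64.5 FPKM in ostie1-1 at stage 10. The stage 12 libraries held 338, 555 and 190 FPKM in WT and 52.9 and 96.0 FPKM in ostie1-1. The lowest WT library at stage 10 was less than 2 times the highest mutant library. LOC_Os04g12920 on chromosome 4 had 196, 174 and 93.0 FPKM in WT and 61.9, 44.9 and 50.4 FPKM in ostie1-1 at stage 10. Its stage 12 values were 196, 123 and 122 FPKM in WT and 45.1 and 66.4 FPKM in ostie1-1. LOC_Os07g28660 on chromosome 7 had 152, 241 and 122 FPKM in WT and 68.3 to 76.5 FPKM in ostie1-1 at stage 10. At stage 12 it had 139, 155 and 72.3 FPKM in WT and 33.0 and 33.2 FPKM in ostie1-1, and its lowest WT stage 12 library was below its highest ostie1-1 stage 10 library.

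LOC_Os12g02340 on chromosome 12, 1 of 4 loci of the set with several transcript models, had 77.3, 49.6 and 855 FPKM in WT and 27.7, 5.02 and 1.73 FPKM in ostie1-1 at stage 10. At stage 12 the values were 109, 246 and 239 FPKM in WT and 33.1 and 30.2 FPKM in ostie1-1. At stage 10 the libraries of both genotypes were widely scattered at this locus. LOC_Os06g18670 on chromosome 6 had 33.4, 35.5 and 1219 FPKM in WT and 16.1, 11.5 and 12.4 FPKM in ostie1-1 at stage 10, and 51.6, 53.0 and 26.8 FPKM in WT and 3.88 and 4.97 FPKM in ostie1-1 at stage 12. Its WT stage 10 replicate 3 was 35.4 times the mean of the other 2, the largest such ratio among the 98.

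Across stages, the lowest of all 6 WT libraries was above the highest of all 5 ostie1-1 libraries at 84 loci, against 2.36% of all loci at the WT floor. The rule already separated the genotypes within each stage, so nothing is read from this count. At the other 14 loci a mutant library of one stage reached into the WT range of the other stage. The WT mean over both stages ran from 3.22 to 741 FPKM with a median of 24.6 FPKM, against 21.5 FPKM for the other 11714 loci at the WT floor. It was below 10 FPKM at 24 loci and at least 100 FPKM at 12.

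Near the threshold the gaps between the lowest WT and the highest mutant library were narrow. The 4 loci just inside it, LOC_Os02g43020, LOC_Os04g12920, LOC_Os01g43250 and LOC_Os10g37670, had a lowest WT value 1.502 to 1.51 times the highest mutant value at the narrower stage. The 4 loci just outside it, LOC_Os06g29180, LOC_Os03g18640, LOC_Os03g50780 and LOC_Os09g32620, had 1.48 to 1.497 times. At LOC_Os01g43250 on chromosome 1 the mean at stage 10 was 1.69 times higher in WT than in ostie1-1, with 68.8, 57.2 and 53.9 FPKM against 35.2, 35.5 and 35.8 FPKM. A narrow gap did not always mean a small difference between group means. At LOC_Os02g43020, LOC_Os10g37670 and LOC_Os04g12920 the WT to ostie1-1 ratios of means were 4.54, 3.95 and 2.94 at stage 10. At stage 12 these ratios were 1.97, 1.67 and 2.63. In all, 57 loci had a gap below 2 and 21 a gap of at least 3.

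WT stage 10 replicate 3 split the set into nearly equal groups. It was above both other WT stage 10 libraries at 44 loci (44.9%), below both at 48 (49.0%) and between them at 6. Among the other 11714 loci at the WT floor it was above both at 27.6% and below both at 67.3%. The rule set a lower bound on this library, and so the shares are a description. Where it was above both, its ratio to the mean of replicates 1 and 2 had a median of 3.25 and a maximum of 35.4. Where it was below both, the median ratio was 0.614 and the lowest 0.194.

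These groups differed in level and in depth of reduction. Loci with replicate 3 above both had a median level of 11 FPKM over WT stage 10 replicates 1 and 2 and a median WT to ostie1-1 ratio of 11.7 at stage 10 and 6.09 at stage 12. Loci with replicate 3 below both had a median of 32.5 FPKM over those libraries, and median ratios of 3.31 and 3.26. The first group was formed by high values of replicate 3, which raise its stage 10 ratio. Without that library the median stage 10 ratios were 5.22 and 3.92. No test was made of this difference, since the groups were formed from measured values.

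**Figure D4:**
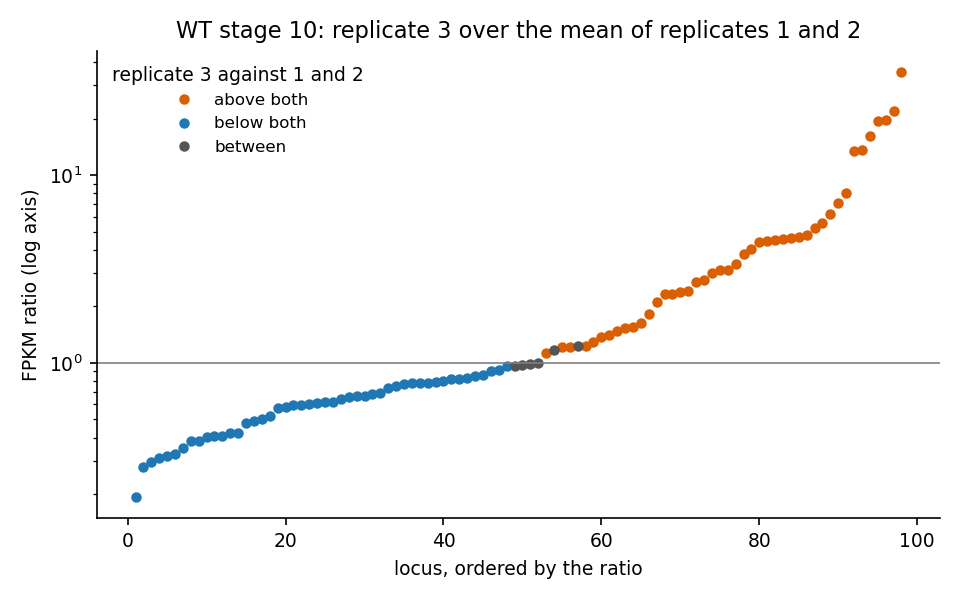
FPKM in WT stage 10 replicate 3 divided by the mean of WT stage 10 replicates 1 and 2 (y axis, log scale) for the 98 loci in rising order (x axis), coloured by whether replicate 3 was above, below or between the other 2. The ratios run from 0.194 to 35.4, with 12 loci at 5 or more and the horizontal line at equal levels.

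At 12 loci WT stage 10 replicate 3 was at least 5 times the mean of the other 2, and 2 of these, LOC_Os01g41710 and LOC_Os08g33820, are on a list of 10 loci that general knowledge of rice assigns to photosynthesis. The list serves as a marker of green tissue, and its identifiers could not be checked against an annotation. LOC_Os01g41710 on chromosome 1 measured 46.9, 40.2 and 849 FPKM in WT and 13.7, 7.58 and 8.03 FPKM in ostie1-1 at stage 10. At stage 12 it measured 57.1, 68.7 and 53.7 FPKM in WT and 18.2 and 3.41 FPKM in ostie1-1. LOC_Os08g33820 on chromosome 8 measured 11, 8.22 and 211 FPKM in WT and 2.84, 1.02 and 1.08 FPKM in ostie1-1 at stage 10, and 14.4, 17.4 and 23.8 FPKM in WT and 6.43 and 1.62 FPKM in ostie1-1 at stage 12. At both loci ostie1-1 stage 12 replicate 1 was well above replicate 2.

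The summed level of the photosynthesis list was highest in WT stage 10 replicate 3 and lower in the ostie1-1 than in the WT libraries of each stage. It was 99.0, 81.5 and 1710 FPKM in WT stage 10 replicates 1 to 3 and 21.9 to 37.5 FPKM in ostie1-1 at stage 10. At stage 12 it was 139 to 177 FPKM in WT and 51.6 and 12.2 FPKM in ostie1-1. Of the 10 loci, 6 were tested and 3 (LOC_Os12g17600, LOC_Os03g39610 and LOC_Os01g52240) were listed at 0 in all libraries, and LOC_Os12g19470 was near 0. At LOC_Os09g17740 the genotypes overlapped at stage 12. None of the 6 passed with limma between genotypes, with 4 at stage 10 and 1 at stage 12 at an unadjusted p below 0.05, where 18.8% and 19.7% of all loci were. Without WT stage 10 replicate 3, 2 of 6 were lower at stage 10 and 5 of 6 at stage 12, where 14.9% and 5.62% of all loci were. Whether the amount of green tissue in a library plays a part in the levels of the 98 loci was not tested.

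The 7 other lists chosen for this tissue also hold identifiers from general knowledge that could not be checked against an annotation, so their names are provisional. None of their loci was among the 98, which are 0.83% of the loci at the WT floor. Loci at the WT floor, which could have entered, numbered 5 of 12 tapetum regulators and proteases, 3 of 11 pollen wall and cuticle genes and both late pollen profilins. They numbered 1 of 7 floral organ MADS genes, 2 of 3 stamen identity MADS genes, 2 of 6 JA biosynthesis genes and 5 of 13 JAZ and MYC2 genes. The profilin list, a marker of late pollen, summed to 60.7 to 191 FPKM in WT at stage 10 and 910 to 1840 FPKM at stage 12, and to 40.3 to 135 and 2222 to 3006 FPKM in ostie1-1. The stamen identity list summed to 63.9 to 76.3 FPKM in WT and 125 to 214 FPKM in ostie1-1 at stage 10, although 1 of its 3 loci, LOC_Os06g49840, was at or near 0 in every library. Between genotypes, 1 of 3 tested JA biosynthesis loci was higher in ostie1-1 at each stage and 1 of 10 tested JAZ and MYC2 loci at stage 10 and 3 at stage 12, and none was lower in limma. Without WT stage 10 replicate 3 the JA biosynthesis counts were 3 and 2 and the JAZ and MYC2 counts 6 and 5, where 18.8% and 10.9% of all loci were higher. Of the pollen wall loci 1 of 8 tested was higher in ostie1-1 at stage 10 and none at stage 12, and 1 locus of each MADS list was higher at each stage. In the fit lacking WT stage 10 replicate 3 these counts were 5 of 7 and 3 for the pollen wall, 2 and 2 of 4 for the floral organ MADS and 2 and 1 of 2 for the stamen identity MADS loci. No tapetum or profilin locus was called between genotypes, though 1 of 9 tapetum loci at each stage and both profilins at stage 12 had an unadjusted p below 0.05. That fit called 3 of 9 tapetum loci higher in ostie1-1 at stage 10 and 2 at stage 12, and no profilin. With all libraries, 2.35% at stage 10 and 3.23% at stage 12 of all loci tested were higher in ostie1-1.

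Stage 12 was then compared with stage 10 within each genotype. The rule did not compare stages, but it bounded the same values, with a floor of 2 FPKM in WT and a ceiling in ostie1-1. The shares called are therefore not independent of the choice. The question was whether loci lower in ostie1-1 at both stages also change as the anther matures. Of the 98, 90 were called in neither genotype. The share of all loci called in neither was not counted, so nothing is read from the 90. In WT, 2 of 98 rose (2.04%) and 3 fell (3.06%), against 2.11% and 0.512% of all loci tested and 0.991% and 0.364% of loci at the WT floor. The share that rose was near the background over all loci, and the share that fell rests on 3 loci. The median log2 fold change of the 98 was -0.20 in WT, against -0.04 over all loci, and 0.10 without WT stage 10 replicate 3, so its sign depended on that library.

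LOC_Os06g07040 on chromosome 6 was the locus that rose with stage in both genotypes. It measured 13.9, 8.76 and 4.81 FPKM in WT at stage 10 and 48.5, 46.8 and 92.7 FPKM at stage 12, a log2 fold change of 2.46 (SE 0.48, limma adjusted p = 0.0254). In ostie1-1 it measured 0.630, 1.18 and 2.42 FPKM at stage 10 and 25.7 and 7.10 FPKM at stage 12, a log2 fold change of 2.71 (SE 0.54, limma adjusted p = 0.00834). The stages did not overlap in either genotype, and the mutant values at stage 12 overlapped the WT values of stage 10. The WT call was lost without WT stage 10 replicate 2 or WT stage 12 replicate 2 or 3 (limma adjusted p = 0.103, 0.0563 and 0.145). It was also lost with no filter on level (limma adjusted p = 0.0813). The ostie1-1 call was lost without ostie1-1 stage 12 replicate 1 (limma adjusted p = 0.108).

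LOC_Os09g36580 on chromosome 9 rose in WT from 9.87, 5.47 and 9.88 FPKM to 34.8, 29.8 and 45.8 FPKM (log2 fold change 1.79, SE 0.40, limma adjusted p = 0.0415). In ostie1-1 it had 3.03, 2.24 and 2.03 FPKM at stage 10 and 5.35 and 2.79 FPKM at stage 12 (log2 fold change 0.50, SE 0.45, limma adjusted p = 0.541). The WT call was lost with a replicate block (limma adjusted p = 0.0510) and without most single libraries, and its p over all alternatives ran from 0.0112 to 0.226. Its WT to ostie1-1 ratio of means was 3.46 at stage 10 and 9.04 at stage 12. Whether the stage change differed between genotypes was not tested, since both genotype contrasts chose the locus.

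The 3 loci that limma called lower at stage 12 in WT were LOC_Os10g05750, LOC_Os06g47910 and LOC_Os04g48870. LOC_Os10g05750, described above, fell by 5.11 on the log2 scale (SE 0.82, limma adjusted p = 0.0154). Its call was lost without WT stage 12 replicate 3 (limma adjusted p = 0.0985). It was also lost with no filter on level (limma adjusted p = 0.0692) and with only the 2 groups compared (0.0551). LOC_Os06g47910 on chromosome 6 fell from 21.6, 45.5 and 19.9 FPKM to 5.64, 6.04 and 2.89 FPKM (log2 fold change -2.49, SE 0.34, limma adjusted p = 0.0103), lost only without WT stage 12 replicate 3 (limma adjusted p = 0.0741). Its ostie1-1 libraries were flat and low, at 0.653, 0.614 and 0.693 FPKM at stage 10 and 1.20 and 0.637 FPKM at stage 12. The WT to ostie1-1 ratio of means was accordingly 44.4 at stage 10 and 5.29 at stage 12. LOC_Os04g48870 on chromosome 4 fell from 24.2, 20.2 and 14.2 FPKM to 8.72, 9.06 and 7.15 FPKM (log2 fold change -1.32, SE 0.30, limma adjusted p = 0.0421). In ostie1-1 it held 0.749, 1.85 and 1.69 FPKM at stage 10 and 1.59 and 0.678 FPKM at stage 12. The call of LOC_Os04g48870 was lost with unscaled FPKM (limma adjusted p = 0.153) and with TPM (0.169), and its p over all alternatives ran from 0.0406 to 0.196.

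The WT counts were small and depended on single libraries. The count of 2 rises was 0 without WT stage 10 replicate 2 or WT stage 12 replicate 2 or 3. Over all loci tested, rises numbered 448 with all libraries and 30, 247 and 0 in these fits, in that order. The count in the set was 1 without WT stage 10 replicate 1, WT stage 12 replicate 1 or any one ostie1-1 stage 10 library. In those fits 218 to 432 of all loci rose. The 3 falls were 0 without WT stage 12 replicate 3, where falls over all loci went from 109 to 3. Calls were thus lost over all loci too, so nothing particular to the set is read from these losses or from those at single loci above. Without WT stage 10 replicate 3 there were 3 rises and 4 falls, where 1.93% and 0.521% of all loci were called.

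In ostie1-1, 3 of 98 rose from stage 10 to stage 12 (3.06%) and 1 fell (1.02%), against 7.78% and 2.94% of all loci tested and 4.49% and 2.52% of loci at the WT floor. The median log2 fold change of the 98 was 0.13, against -0.04 over all loci. At 21 of the 98 all 5 ostie1-1 libraries were below 2 FPKM, where adding 1 before the log shrinks any change. The rule favours low ostie1-1 values, so the shares called in ostie1-1 are not free of the choice. Beside LOC_Os06g07040, LOC_Os10g37670 on chromosome 10 rose from 18.4, 19.6 and 20.3 FPKM to 81.8 and 80.02 FPKM (log2 fold change 1.98, SE 0.34, limma adjusted p = 0.00416). It had 112, 86.3 and 32.2 FPKM in WT at stage 10 and 133, 124 and 149 FPKM at stage 12 (log2 fold change 0.76, SE 0.30, limma adjusted p = 0.272). The mutant thus came closer to WT at stage 12, and the locus passed the rule only narrowly there. LOC_Os06g22394 on chromosome 6 rose from 13.9, 13.4 and 14.7 FPKM to 53.2 and 29.0 FPKM (log2 fold change 1.40, SE 0.38, limma adjusted p = 0.0353), with 56.9, 37.1 and 54.9 FPKM in WT at stage 10 and 88.3, 102 and 83.1 FPKM at stage 12. The limma adjusted p of that rise reached 0.246 without ostie1-1 stage 12 replicate 1, and the call was lost in 7 of the 11 fits that left out 1 library. LOC_Os05g32240 on chromosome 5 fell from 14.0, 8.92 and 19.1 FPKM to 1.81 and 3.62 FPKM (log2 fold change -2.04, SE 0.55, limma adjusted p = 0.0349), with 124, 149 and 52.5 FPKM in WT at stage 10 and 120, 33.7 and 26.5 FPKM at stage 12.

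The stage counts in ostie1-1 rested on 2 libraries at stage 12. Without WT stage 10 replicate 3, 7 of 98 rose and 6 fell, against 13.3% and 9.52% of all loci. The 3 rises were 1 without ostie1-1 stage 12 replicate 1, and the fall of LOC_Os05g32240 was lost without ostie1-1 stage 10 replicate 1 or 3 or either ostie1-1 stage 12 library. The fall was also lost with unscaled FPKM (limma adjusted p = 0.0692) and with TPM (0.0646). At 30 loci both ostie1-1 stage 12 libraries were above all 3 stage 10 libraries and at 19 below them, against 24.4% and 20.1% of all loci. Among loci at the WT floor these shares were 21.7% and 19.2%. In WT the same was true of 10 loci in each direction, against 13.1% and 6.75% of all loci and 10.0% and 7.17% of loci at the WT floor.

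**Figure D5:**
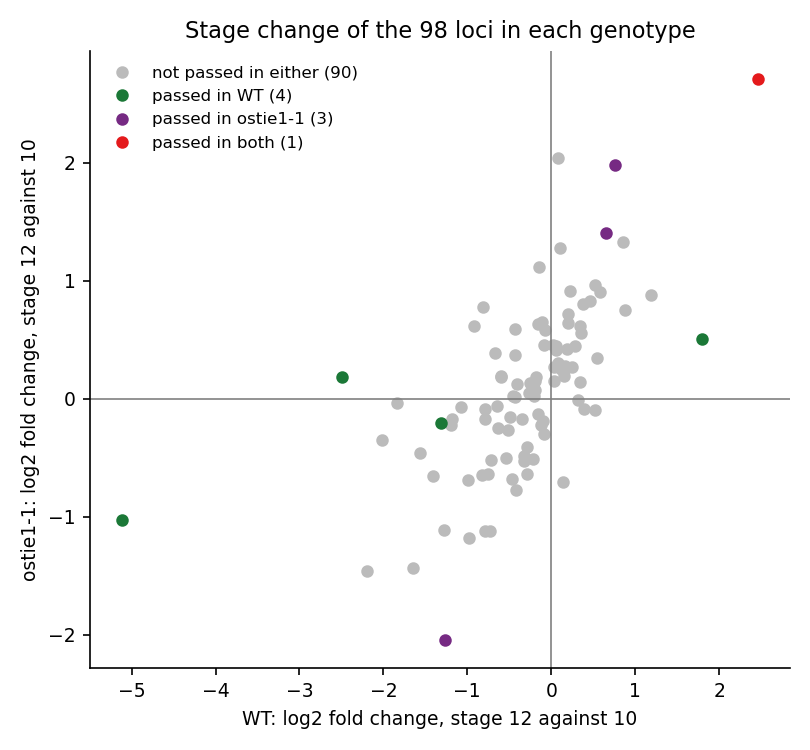
Log2 fold change from stage 10 to stage 12 in WT (x axis) and in ostie1-1 (y axis) on the log2(FPKM + 1) scale, with 1 point for each of the 98 loci. Colours mark the loci with a limma adjusted p below 0.05: 4 in WT, 3 in ostie1-1, 1 in both (LOC_Os06g07040, upper right) and 90 in neither.

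The loci were spread over all 12 chromosomes. Chromosome 3 held the most, 15 loci or 15.3% of the set, against 13.5% of the loci at the WT floor. Chromosome 4 held 3 (3.06% against 8.58%) and chromosome 9 held 9 (9.18% against 5.6%). By the order of their identifiers, 2 pairs of loci lay close to each other, with at most 3 loci of any signal between them. LOC_Os02g42990, described above, and LOC_Os02g43020 on chromosome 2 were separated by 1 such locus, LOC_Os02g43000, which never exceeded 0.284 FPKM. LOC_Os02g43020 had 147, 151 and 41.7 FPKM in WT and 27.8, 21.7 and 25.4 FPKM in ostie1-1 at stage 10, and 141, 111 and 119 FPKM in WT and 60.1 and 65.4 FPKM in ostie1-1 at stage 12. The 2 neighbours thus differed in how much transcript the mutant kept.

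The second pair, LOC_Os09g30458 and LOC_Os09g30478 on chromosome 9, was separated by 3 loci. LOC_Os09g30458 had 28.8, 23.8 and 8.40 FPKM in WT and 2.92, 2.69 and 3.81 FPKM in ostie1-1 at stage 10, and 12.7, 43.0 and 31.0 FPKM in WT and 6.20 and 3.48 FPKM in ostie1-1 at stage 12. LOC_Os09g30478 had 139, 112 and 50.7 FPKM in WT and 18.8, 28.9 and 33.0 FPKM in ostie1-1 at stage 10, and 159, 153 and 175 FPKM in WT and 75.1 and 34.5 FPKM in ostie1-1 at stage 12. In both, WT stage 10 replicate 3 was the lowest WT stage 10 library. The 3 loci between them did not meet the rule. LOC_Os09g30462, the first of these, had 23.3, 14.7 and 5.13 FPKM in WT and 2.98, 3.82 and 3.40 FPKM in ostie1-1 at stage 10, and its stage 12 groups overlapped. Whether reads were shared among these neighbours was not tested.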

How the data were processed

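RNA of anthers was sequenced in 11 libraries, placed in 4 groups by their titles. The authors deposited FPKM for each of 66338 MSU transcript models. HISAT2 2.2.0, featureCounts and the build IRGSP-1.0 are named, per the submitters' processing notes. How counts became FPKM, the filters and the treatment of reads shared between places are not given in the sources used here. FPKM were summed per locus (55986 loci, 16218 at 0 in every library).

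Read counts are not in the table. Steps between low values put the libraries at 0.914 to 1.17 times the depth of WT stage 10 replicate 1 (91.6% to 94.2% of ratios were ratios of whole numbers up to 12, within a log2 tolerance of 0.002), but the depth itself is unknown, and counting intervals are therefore left out.

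For the tests, libraries were scaled by median-of-ratios size factors (0.734 to 1.33), values became log2(FPKM + 1), and the 21279 loci with at least 1 FPKM in at least 2 libraries were fitted with limma 3.58.1 (R 4.3.3, trended variance, 1 mean per group, all 11 libraries). All 98 loci passed this filter. Calls used Benjamini-Hochberg adjustment across all tested loci, with a threshold of 0.05. The scripts were tested on simulated data. The 98 loci, the 8 gene lists and the rule for named loci were chosen with earlier results of these data known. Named were the loci with the 12 widest gaps, the 8 highest WT levels, the largest stage changes that passed without overlap, those nearest the threshold, close neighbours and list members. Other named loci were chosen after their values were seen.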

Additional observations from a re-analysis of the deposited data

How the results depend on the processing

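The number of loci found by the rule was 41 at a ratio of 2 and 21 at a ratio of 3. Leaving out 1 library gave 102 to 1708, the highest without WT stage 10 replicate 3. With a floor of 5 or 1 FPKM it was 71 or 130, and 97 with each transcript model by itself. With median-of-ratios scaling 81 loci met the rule, 59 of them among the 98, and with TPM 133, 97 of them among the 98.

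Of the stage 12 against stage 10 calls, the 2 rises in WT became 0 with no filter and 1 with only the 2 groups compared. The 3 falls became 1 in either setting. Over all loci 44 rises and 18 falls were called of 39768 with no filter. With only the 2 groups compared they were 297 and 22 of 19495. The 1 fall in ostie1-1 became 0 with unscaled FPKM, TPM or no filter, 2 with a pseudocount of 0.1 and 3 with only the 2 groups compared. The shares of all loci called in these ostie1-1 settings are not given here, so nothing is read from the changes. Leaving out 1 library gave 0 to 3 rises and 0 to 4 falls in WT, and 1 to 7 rises and 0 to 6 falls in ostie1-1. A fit that leaves 1 library in ostie1-1 stage 12 assumes that it varies like the other groups. The calls over all loci also changed between the fits that left out a library, so nothing particular to the set is read from these ranges. The causes were not tested. No named call changed sign in any of these settings.

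Deviations of same-numbered WT libraries from their group means correlated at -0.20, 0.08 and -0.09 between the stages. Those of the ostie1-1 libraries correlated at -0.47 and -0.19. Deviations from a group mean are tied to each other, and those of the 2 ostie1-1 stage 12 libraries are mirror images. Same-numbered libraries of WT and ostie1-1 were not compared, so whether the replicate numbers pair the samples cannot be told. With the replicate block there were 1 rise and 2 falls in WT, where 401 and 56 of 21279 loci were called. In ostie1-1 there were 2 rises and 0 falls, for which the share of all loci is not given here. Depth limits the loci below 1 FPKM in ostie1-1, where levels near 0 cannot be ranked.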

Other observations

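The loci next to the 12 with the widest gaps were examined for a shared reduction. Taking up to 3 tested loci on either side in identifier order gave 72 loci, 1 of them (LOC_Os02g43020) itself one of the 98. With limma, 2 of the 72 were lower in ostie1-1 at stage 10 and 2 at stage 12, where 0.555% and 0.301% of all loci were, and 2 and 3 were higher, where 2.35% and 3.23% of all loci were. Their median log2 fold change was -0.06 at stage 10 and 0.05 at stage 12. Apart from LOC_Os02g43020, the lower neighbours were LOC_Os07g43950 at stage 10 and LOC_Os08g34990 and LOC_Os03g12290 at stage 12, named after their values were seen. LOC_Os07g43950 had 187, 186 and 151 FPKM in WT and 37.6, 32.8 and 38.6 FPKM in ostie1-1 at stage 10 (log2 fold change -2.08, limma adjusted p = 0.002), but -0.10 at stage 12 (limma adjusted p = 0.870). LOC_Os03g12290 had 49.1, 21.5 and 18.8 FPKM in WT and 1.13 and 2.18 FPKM in ostie1-1 at stage 12 (log2 fold change -3.12, limma adjusted p = 0.00895).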
